A study of Mus musculus with 6 samples.

Results

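The genes described here are 8 enzymes and enzyme partners with which the colon epithelium makes or uses reactive oxidants: the peroxidase Lpo, the dual oxidase Duox2 with its maturation factor Duoxa2, the NADPH oxidase Nox1 with its partners Cyba, Noxo1 and Noxa1, and the inducible nitric oxide synthase Nos2. They are 8 of 19533 genes measured, and each had 1 probe set. The members were chosen by name, with the differences between the genotypes on these same arrays known, so their own differences are a description and support nothing. The samples were live EpCAM-positive cells sorted out of the large intestine of C57BL/6 mice kept germ-free, without a microbiota. Control mice had floxed Hdac3 alleles (HDAC3FF, n = 3), and in the others Hdac3, which encodes a histone deacetylase, was deleted in intestinal epithelial cells (HDAC3ΔIEC, n = 3). Both groups were germ-free and of 1 strain, and the labels name no other treatment. The promoter that drove the deletion and the age and sex of the mice are unknown here. Total RNA of each mouse was hybridised to 1 Affymetrix array, and all signals are on the log2 scale as deposited.

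Oxidants are part of the defence of a mucosal surface. Dual oxidases sit in the apical membrane and release hydrogen peroxide towards the lumen, and a dual oxidase leaves the endoplasmic reticulum as an active enzyme only together with its maturation factor. Peroxidases such as lactoperoxidase use that peroxide to oxidise thiocyanate or halides to antimicrobial products. NOX1, the main NADPH oxidase of colon epithelium, forms superoxide and needs the membrane partner p22phox, the organiser NOXO1 and the activator NOXA1, while inducible nitric oxide synthase makes nitric oxide from arginine. Duox2, Duoxa2 and Nos2 are known to be induced in gut epithelium by microbes and cytokines.

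The 6 arrays had median signals of 5.30 to 5.35. Hdac3 itself averaged 7.12 ± 0.21 (SD, n = 3) in HDAC3FF and 6.27 ± 0.29 (SD, n = 3) in HDAC3ΔIEC, with no overlap between the groups. Its log2 fold change of -0.86 ± 0.17 (SE) missed limma's threshold over all genes (adjusted p = 0.0937). Whether its probes lie inside or outside the deleted part was not tested. The epithelial markers were bright on all arrays: Epcam lay between 10.75 and 11.06 and the actin bundler Vil1 between 10.80 and 11.26. None of the 12 measured epithelial markers passed (4 had an unadjusted p under 0.05), and their median log2 fold change was 0.14. In the same fit, 2192 of all 19533 genes had an unadjusted p under 0.05.

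The promoter windows of 4 members are printed to show what lies upstream of the genes whose signals are described next: Lpo, the member called between the genotypes; Duox2 and Duoxa2, a divergent pair; and Noxa1, the member that read lower. Sequences are RefSeq's, build GRCm38.p6, 250 bases before the annotated start and 5′ to 3′ on the gene's strand. Capitals mark matches to any of the motifs searched on both strands: TATAAA, the STAT motif TTCNNNGAA, the interferon response motif, the nuclear receptor core site AGGTCA, the GATA motif GATAA, the caudal motif TTTATG and the kappaB motif.
Lpo (chr11:87826115-87826364, minus strand): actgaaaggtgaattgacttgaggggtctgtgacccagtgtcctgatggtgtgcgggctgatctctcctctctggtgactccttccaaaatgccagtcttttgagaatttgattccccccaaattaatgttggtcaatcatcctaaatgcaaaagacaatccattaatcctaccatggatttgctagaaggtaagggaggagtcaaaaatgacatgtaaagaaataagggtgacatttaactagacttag
Duox2 (chr2:122298228-122298477, minus strand): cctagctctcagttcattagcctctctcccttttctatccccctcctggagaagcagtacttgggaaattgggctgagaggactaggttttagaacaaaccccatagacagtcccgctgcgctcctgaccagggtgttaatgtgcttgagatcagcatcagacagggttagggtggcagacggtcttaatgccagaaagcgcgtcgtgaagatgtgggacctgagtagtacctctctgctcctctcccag
Duoxa2 (chr2:122298650-122298899, plus strand): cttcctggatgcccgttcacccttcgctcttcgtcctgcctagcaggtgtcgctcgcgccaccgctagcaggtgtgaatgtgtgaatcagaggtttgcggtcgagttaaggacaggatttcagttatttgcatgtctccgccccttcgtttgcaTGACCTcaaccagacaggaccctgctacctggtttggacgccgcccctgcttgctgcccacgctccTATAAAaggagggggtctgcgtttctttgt
Noxa1 (chr2:25095206-25095455, minus strand): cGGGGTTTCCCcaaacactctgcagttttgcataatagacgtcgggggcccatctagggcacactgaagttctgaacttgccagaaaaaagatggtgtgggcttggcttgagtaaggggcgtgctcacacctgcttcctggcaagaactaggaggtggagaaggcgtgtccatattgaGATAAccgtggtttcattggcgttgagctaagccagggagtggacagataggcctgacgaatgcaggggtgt

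The annotated starts of Duox2 and Duoxa2 lie 673 bases apart on chromosome 2 and point away from each other, so that both windows fall in the stretch between the genes. Of the 7 members with a window in the table, Duoxa2 alone held the TATA motif, 30 to 25 bases before its start, and the nuclear receptor core site, 96 to 91 bases before it on the opposite strand. They stood in 12.4% and 14.0% of all 32851 windows of the table. Noxa1 held a kappaB match that reads on both strands, and Nox1 held another on the opposite strand, against 7.25% of all windows. GATA motifs were present for Nox1, Noxa1 and Cyba, in 22.6% of all windows, and the caudal motif for Nox1, in 10.8%. The STAT motif (7.02% of all windows) and the interferon response motif (2.98%) occurred in none of the 7 windows, and the Lpo and Duox2 windows held none of the 7 motifs. The windows differed in base composition, from 38.0% G and C for Nox1 and 42.0% for Lpo to 80.0% for Noxo1, with a median of 52.4% over the table. Matches are letters in a window and no measure of binding.

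Lpo, the secreted heme peroxidase, was the member that rose in the HDAC3ΔIEC epithelium. It read 4.53, 5.01 and 4.52 on the HDAC3FF arrays and 6.72, 7.36 and 6.67 on the HDAC3ΔIEC arrays. The groups were separated by 1.66 log2 units between the highest control and the lowest HDAC3ΔIEC array, more than the range inside either group (0.49 and 0.69). The means were 4.69 ± 0.28 and 6.92 ± 0.38 (SD, n = 3 each), a difference of 2.23 ± 0.22 (SE) on the log2 scale and a 4.69-fold difference (95% interval 3.30 to 6.65). In limma's fit this placed Lpo 23rd of 19533 genes by p and 17th by size of rise (adjusted p = 0.0112). In the controls its signals stood between the 34.8th and 45.4th percentile of the genes on their arrays, and in HDAC3ΔIEC between the 67.8th and 75.6th. Whether the control signals of Lpo lie above background is not marked, which limits what the size of the fold difference shows. In sorted cells, more cells that make a transcript and more transcript per cell cannot be told apart.

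With each of the 6 arrays left out in turn the log2 fold change of Lpo ran from 2.01 to 2.39. It passed in 5 of these 6 fits. Without HDAC3FF replicate 1 it was 2.15 and did not pass (limma adjusted p = 0.0891, in a range from 0.00212 to 0.0891 over all 15 alternative settings), where 13 genes passed in all.

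**Figure D1:**
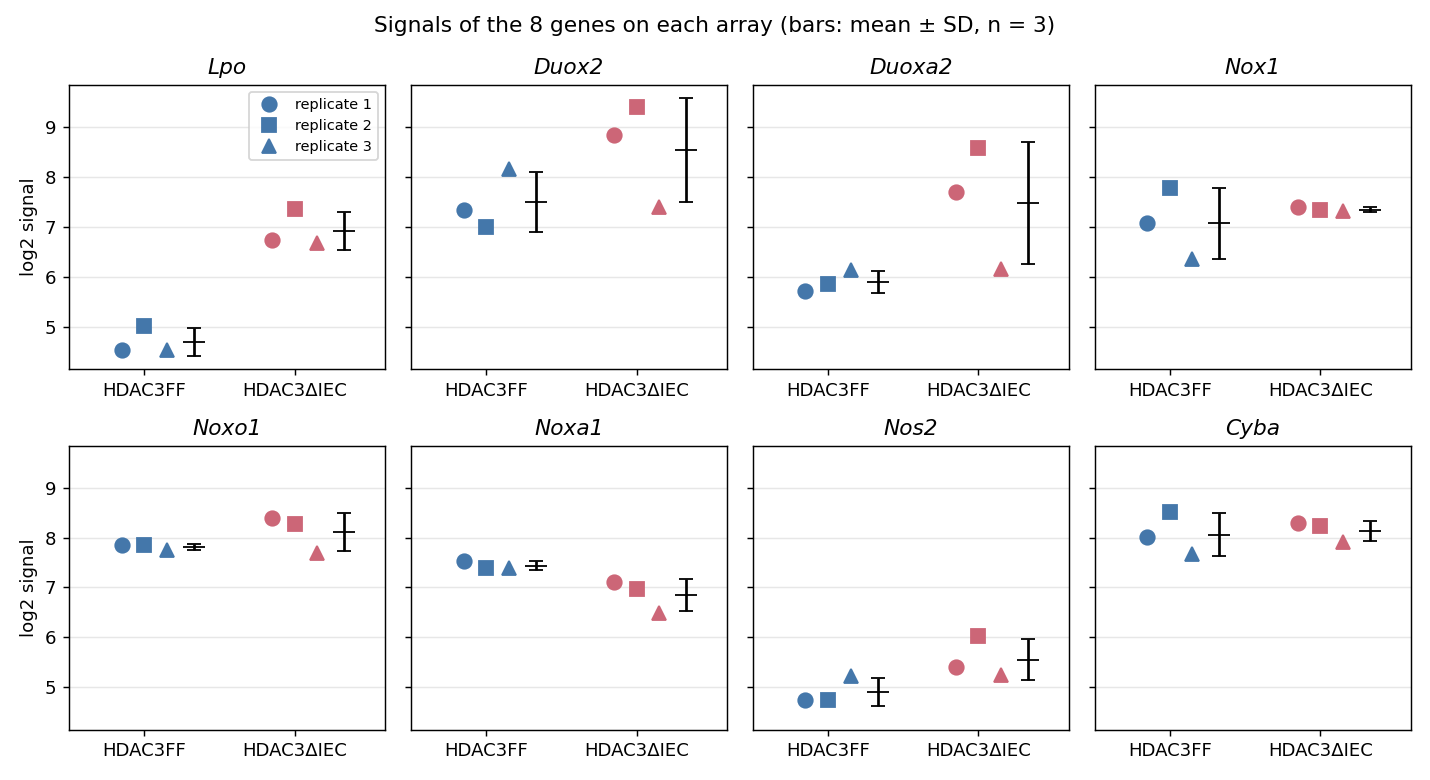
Log2 signals (vertical axis) of the 8 genes on the 3 HDAC3FF (blue) and 3 HDAC3ΔIEC (red) arrays, with symbols for the replicate numbers and bars for the mean ± SD (n = 3). The groups of Lpo are 1.66 apart, those of Duoxa2 and Nos2 touch at HDAC3ΔIEC replicate 3, and that array is the lowest of its group in all 8 panels.

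Neither gene of the dual oxidase pair passed, though HDAC3ΔIEC replicates 1 and 2 read above all controls for both. Duox2, the catalytic subunit that releases hydrogen peroxide, read 7.34, 7.00 and 8.15 in HDAC3FF and 8.84, 9.40 and 7.39 in HDAC3ΔIEC. HDAC3ΔIEC replicate 3 fell among the controls and HDAC3FF replicate 3 above it, so the groups overlapped. The mean difference was 1.05 ± 0.52 on the log2 scale (SE; limma adjusted p = 0.527), with a 95% interval from -0.17 to 2.26 whose upper end is a 4.80-fold difference.

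Duoxa2, the maturation factor that brings DUOX2 to the cell surface, read 5.70, 5.85 and 6.13 in HDAC3FF and 7.70, 8.57 and 6.16 in HDAC3ΔIEC. The controls were tight (5.89 ± 0.22, SD, n = 3) and the HDAC3ΔIEC arrays were not (7.48 ± 1.22), with replicate 3 only 0.03 above the highest control. At 1.58 ± 0.54 (SE) its log2 fold change followed that of Lpo in size and did not pass (limma adjusted p = 0.307). Without HDAC3ΔIEC replicate 3 it was 2.24 (limma adjusted p = 0.0589), whereas omitting HDAC3ΔIEC replicate 2 left 1.03, in a range of adjusted p from 0.0589 to 0.602 over all alternatives. For Duox2 the same omissions gave 1.63 and 0.62, neither of which passed.

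Nos2, which makes nitric oxide, showed the same order of HDAC3ΔIEC arrays as Duox2, Duoxa2 and Lpo, with replicate 2 highest and replicate 3 lowest. It read 4.74, 4.75 and 5.23 in HDAC3FF and 5.40, 6.02 and 5.24 in HDAC3ΔIEC. The lowest HDAC3ΔIEC array lay 0.01 above the highest control, so the groups barely separated. The log2 fold change was 0.65 ± 0.23 (SE; limma adjusted p = 0.320). Over the 6 arrays Nos2 was the member whose mean signal lay under the median of all genes. In HDAC3FF alone the mean of Lpo (4.69) was lower than that of Nos2 (4.91). Which signals are below background is not marked.

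The genes of the NOX1 complex gave no call and no common direction. Nox1, its catalytic subunit, read 7.07, 7.78 and 6.36 in HDAC3FF and 7.39, 7.33 and 7.31 in HDAC3ΔIEC. All 3 HDAC3ΔIEC values lay inside the wide control range, and the difference of 0.27 ± 0.31 (SE; limma adjusted p = 0.852) had a 95% interval from -0.46 to 1.01. Without HDAC3FF replicate 3 it turned to -0.082. Cyba, which encodes p22phox, the membrane partner that stabilises NOX1, read 8.01, 8.51 and 7.66 in HDAC3FF and 8.28, 8.22 and 7.91 in HDAC3ΔIEC. Its groups overlapped throughout, the log2 fold change was 0.08 ± 0.21 (SE; limma adjusted p = 0.953, 95% interval -0.43 to 0.58), and without HDAC3FF replicate 3 it was -0.12.

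The 2 cytosolic partners of NOX1 differed in direction. Noxo1, the organiser, read 7.85, 7.85 and 7.75 in HDAC3FF and 8.39, 8.27 and 7.69 in HDAC3ΔIEC. HDAC3ΔIEC replicates 1 and 2 lay above the narrow control range and replicate 3 below it, with a mean difference of 0.30 ± 0.18 (SE; limma adjusted p = 0.631). Noxa1, the activator, read 7.54, 7.40 and 7.38 in HDAC3FF and 7.10, 6.97 and 6.50 in HDAC3ΔIEC. The highest HDAC3ΔIEC value lay 0.28 below the lowest control, and Noxa1 was the 1 member with a negative log2 fold change (-0.58 ± 0.16, SE). This missed the threshold (limma adjusted p = 0.197, in a range from 0.139 to 0.476 over the alternatives), and the difference between the changes of Noxo1 and Noxa1 was not tested.

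**Figure D2:**
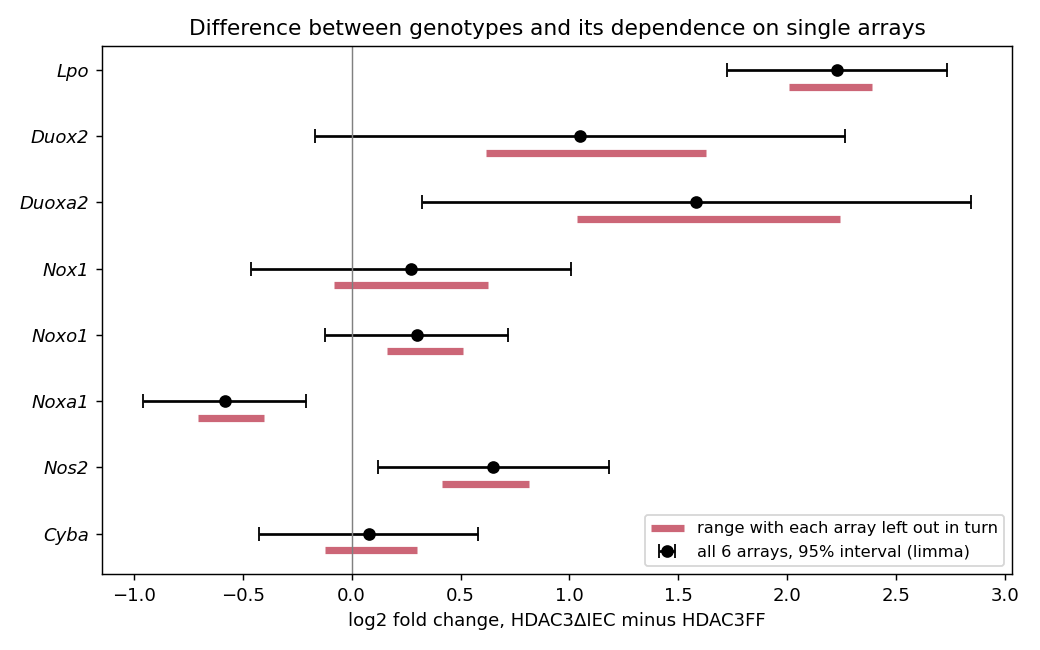
Log2 fold change of HDAC3ΔIEC minus HDAC3FF (horizontal axis) for each gene: points and whiskers give limma's estimate and 95% interval from all 6 arrays, and red bars the range when each array is left out in turn. Lpo keeps between 2.01 and 2.39, Duoxa2 moves between 1.03 and 2.24, and the bars of Nox1 and Cyba cross 0.

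In all, 1 of the 8 members passed, against 0.701% of all genes (0.369% higher and 0.333% lower), and 4 had groups that did not overlap, 3 higher and 1 lower, against 16.2% of all genes (8.45% higher and 7.7% lower). The members' median log2 fold change was 0.47, beside 0.01 over all genes. These figures describe a list made with the comparison in view, and nothing is read from them. For the 4 members with separate groups the exact two-sided permutation test over arrays gave p = 0.1, which is the lowest value possible with 3 arrays on each side, and for the other 4 it gave 0.2 for Duox2, 0.4 for Noxo1, 0.7 for Nox1 and 0.9 for Cyba.

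HDAC3ΔIEC replicate 3 was the lowest array of its group for 8 of the 8 members, while it was the lowest for 32.6% of all genes. In HDAC3FF, replicate 3 was the lowest for 5 members, and for 34.9% of all genes. It was the highest for 3 members, namely Duox2, Duoxa2 and Nos2, and for 39.2% of all genes. In limma's array weights, where arrays that depart from their group get less weight, HDAC3FF replicate 3 had 0.475 and HDAC3ΔIEC replicate 3 had 0.654, and the other 4 arrays between 1.01 and 1.63. What sets these arrays apart was not tested. With these weights the log2 fold changes of Duox2 and Duoxa2 were 1.47 and 1.96, and neither passed.

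The genes beside the members on the chromosomes were set against them, since they were not used in the choice. By the order of genes in RefSeq's table, Lpo lies between Mpo, the peroxidase of neutrophils, and Mks1, a gene of the ciliary transition zone, and Epx, the eosinophil peroxidase, follows Mks1. Mpo read 3.96, 4.13 and 4.27 in HDAC3FF and 4.21, 4.12 and 4.30 in HDAC3ΔIEC, with a difference of 0.09 ± 0.11 (SE; limma adjusted p = 0.858). Mks1 had 0.05 ± 0.08 (limma adjusted p = 0.900), and Epx lay between 3.86 and 3.99 on all arrays at 0.02 ± 0.08 (limma adjusted p = 0.970). All 3 stood under the median of their arrays, and their 95% intervals ended at 0.34, 0.23 and 0.20. Whether such signals lie above background is not marked. Lpo was chosen with its difference known, so its distance from these neighbours is a description and supports nothing.

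Past Duoxa2 on chromosome 2 follow the paralogs Duoxa1 and Duox1. Duoxa1 read 5.21, 5.08 and 5.28 in HDAC3FF and 5.32, 5.39 and 5.32 in HDAC3ΔIEC (0.15 ± 0.09, SE; limma adjusted p = 0.609), and Duox1 lay between 3.49 and 3.74 on all arrays (0.07 ± 0.10; limma adjusted p = 0.901). Duoxa1 had separate groups at a small distance, and Duox1 was dim on all arrays. On the other side of Duox2 the nearest measured gene was Terb2, with 0.06 ± 0.09.

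The remaining neighbours were Cstf2 and Xkrx beside Nox1, Gfer and Tbl3 beside Noxo1, Entpd8 and Nrarp beside Noxa1, Lyrm9 and Lgals9 beside Nos2, and Il17c and Mvd beside Cyba. Of the 14 neighbours that are not members, limma called 0 (1, Nrarp, had an unadjusted p under 0.05), and their log2 fold changes ran from -0.10 for Il17c to 0.49 for Gfer. Lgals9, which encodes galectin-9, had 0.49 ± 0.23 (SE) beside the 0.65 of Nos2, and Nrarp 0.34 ± 0.12 beside the -0.58 of Noxa1.

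**Figure D3:**
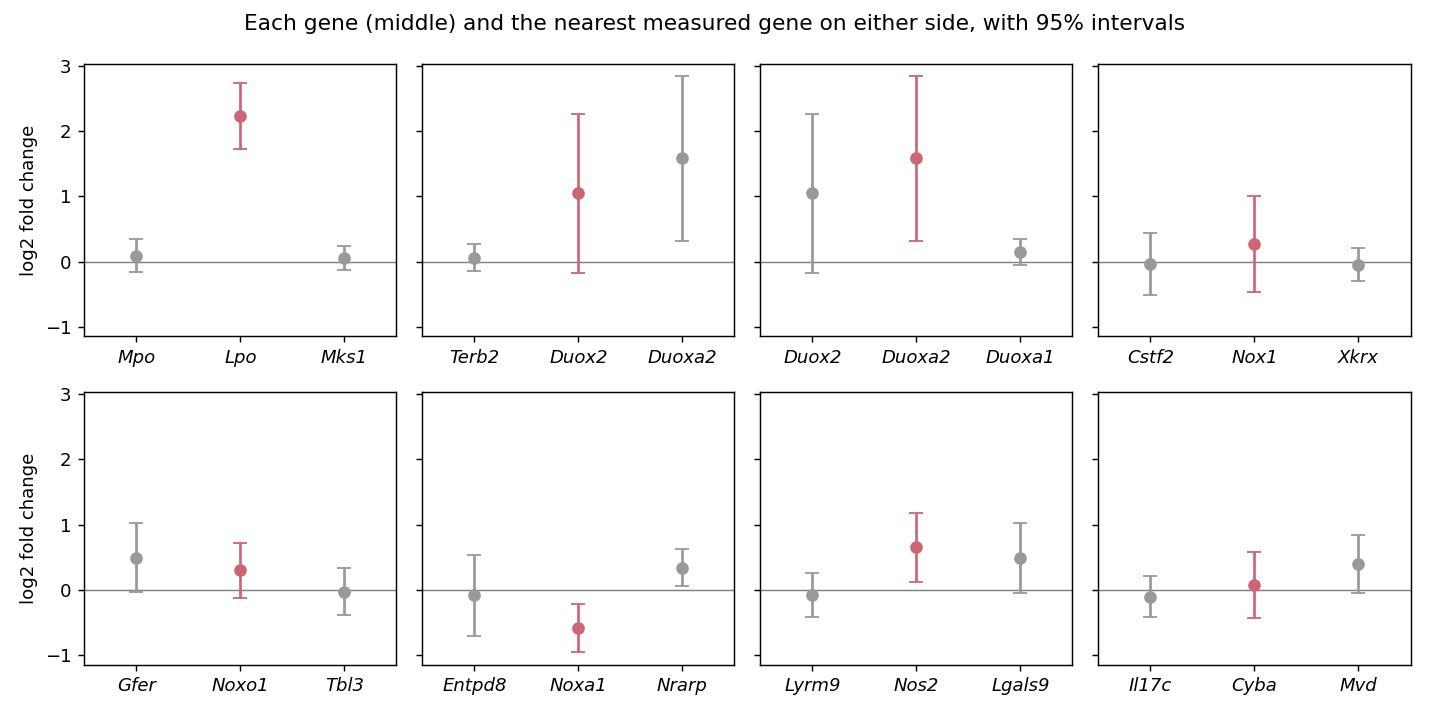
Log2 fold change with limma's 95% interval (vertical axis) for each of the 8 genes (red, middle) and the nearest measured gene on either side in RefSeq's order (grey). Lpo stands at 2.23 between Mpo at 0.09 and Mks1 at 0.05, while Duox2 and Duoxa2 are each other's neighbour.

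The lists of related pathways and of cell markers gave 3 calls, all higher, among 172 measured entries in 13 lists. Of all genes 0.701% were called, 0.369% higher. The 3 calls came from pathway lists, and the cell marker lists gave none. None of these lists shares a gene with the 8. Of 12 measured other NADPH oxidase genes limma called 0 (1 had an unadjusted p under 0.05), with a median log2 fold change of 0.02. Cyb5r4, a cytochrome reductase once proposed as an oxidase, had -0.28 ± 0.10 (SE; limma adjusted p = 0.351). The phagocyte oxidase genes Cybb, its catalytic subunit, and Ncf1, its organiser, lay between 3.44 and 3.72 and between 4.34 and 4.49 on all arrays. Rac1, the small GTPase that NOX1 needs, was bright at 10.25 to 10.76, with 0.17 ± 0.12. Of the 4 measured other heme peroxidases limma called 0 (0 with an unadjusted p under 0.05), with a median of 0.06, Mpo as above and Ptgs2, the inducible cyclooxygenase, at 0.18 ± 0.10 (limma adjusted p = 0.597).

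Around nitric oxide, 1 of 12 measured genes of other synthases and arginine handling rose, none fell and 11 did not pass, where 0.369% of all genes were called higher and 0.333% lower. It was Ddah1, which breaks down the methylarginines that inhibit nitric oxide synthases. Ddah1 read 8.95, 9.08 and 8.60 in HDAC3FF and 9.97, 10.16 and 10.21 in HDAC3ΔIEC. The groups were far apart, at 1.24 ± 0.14 (SE; limma adjusted p = 0.0218) or 2.35-fold. With arrays left out, the call was lost without HDAC3FF replicate 1 and without each HDAC3ΔIEC array (limma adjusted p from 0.00796 to 0.129 over the 6 omissions). In those 4 omissions the log2 fold change lay between 1.19 and 1.31. The list's median was 0.00, and the constitutive synthases Nos1 and Nos3 had 0.03 ± 0.09 and -0.16 ± 0.13.

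Among 24 measured other oxidases that release peroxide, 2 rose, none fell and 22 did not pass (median 0.02), beside the same shares of all genes. With array weights 3 were called, 2 higher and 1 lower, and without HDAC3FF replicate 3 there were 4, 2 in each direction. Ero1a, which oxidises protein thiols in the endoplasmic reticulum, read 8.90, 8.83 and 8.97 in HDAC3FF and 9.89, 10.00 and 9.84 in HDAC3ΔIEC. Its arrays were tight in both groups, and it rose by 1.01 ± 0.09 (SE; limma adjusted p = 0.00901), a call that, with arrays left out, was lost without HDAC3FF replicate 1 or HDAC3ΔIEC replicate 2 (limma adjusted p from 0.00585 to 0.0637 over the 6 omissions). Maoa, the mitochondrial oxidase of serotonin and other amines, rose by 0.65 ± 0.10 from 11.27 ± 0.15 to 11.92 ± 0.05 (SD, n = 3 each; limma adjusted p = 0.0452). With arrays left out, that call passed without HDAC3FF replicate 3 and not without any of the other 5 arrays, nor with quantile normalization, median centring or adjustment over all probe sets (limma adjusted p from 0.0230 to 0.213 over the alternatives).

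Chosen after their values were seen, 3 further oxidases of this list read lower by over 1 on the log2 scale and did not pass. Maob, the paralog of Maoa, had -1.44 ± 0.36 (SE; limma adjusted p = 0.163) with separate groups. Aoc1, the secreted diamine oxidase that degrades histamine, had -1.34 ± 0.29 (limma adjusted p = 0.115), also with separate groups. The peroxisomal hydroxyacid oxidase Hao2 had -1.19 ± 0.41 (limma adjusted p = 0.318), and its groups overlapped. Maob was called lower with array weights, and Maob and Hao2 were called lower without HDAC3FF replicate 3.

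Genes that remove peroxide and superoxide gave no call: limma called 0 of 14 measured (3 had an unadjusted p under 0.05), with a median of 0.04. Cat, the peroxisomal catalase, read 9.51, 9.53 and 9.97 in HDAC3FF and 9.46, 9.17 and 9.01 in HDAC3ΔIEC (-0.46 ± 0.17, SE; limma adjusted p = 0.340). Gpx4, which reduces lipid peroxides, read 9.72, 9.73 and 9.69 against 9.88, 10.06 and 10.14 (0.31 ± 0.09; limma adjusted p = 0.245). Both had separate groups, in opposite directions.

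The list of thiocyanate, halide and proton transport genes, 8 of them measured, had negative log2 fold changes in 6 of 8 cases, with a median of -0.17, and limma called 0 of the 8 (2 had an unadjusted p under 0.05). Ano1, a calcium-activated chloride channel, read 6.88, 7.43 and 7.03 in HDAC3FF and 6.24, 6.04 and 5.68 in HDAC3ΔIEC. The groups were separate at -1.13 ± 0.19 (SE), and the gene missed the threshold (limma adjusted p = 0.0564). It passed with quantile normalization, an intensity trend, array weights, the filter on dim genes and without HDAC3FF replicate 3 (limma adjusted p from 0.0327 to 0.215 over the alternatives). Slc26a3, the chloride-bicarbonate exchanger of the colon surface, had -0.44 ± 0.08 (limma adjusted p = 0.0819). Cftr, a channel that also passes thiocyanate, was named after its values were seen. It had -0.92 ± 0.41 with overlapping groups (limma adjusted p = 0.465) and was called lower without HDAC3FF replicate 3.

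Signalling genes known to induce Duox2 or Nos2 were spread around 0: of 22 measured, limma called 0 (4 had an unadjusted p under 0.05), 11 were positive and 11 negative, and the median was -0.03. Cebpb, a transcription factor of the inflammatory response, had 0.36 ± 0.10 (SE; limma adjusted p = 0.182), and the cytokine receptor kinase Jak2 0.55 ± 0.15 (limma adjusted p = 0.200). Both had separate groups, and Jak2 passed without HDAC3FF replicate 3, at 0.71 (limma adjusted p = 0.0306, in a range from 0.0306 to 0.540).

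Epithelial genes known to rise with Duox2 under microbes or inflammation did not follow one direction. Of 17 measured, limma called 0, 9 were positive and 8 negative, and the median was 0.02. An unadjusted p under 0.05 in limma's fit was found for 6 of the 17, beside 2192 of all 19533 genes. Groups were separate for 7, 4 higher and 3 lower, against 16.2% of all genes (8.45% higher and 7.7% lower). Reg3g, an antibacterial lectin, read 7.38, 7.01 and 4.95 in HDAC3FF and 10.03, 8.78 and 8.47 in HDAC3ΔIEC (2.65 ± 0.67, SE; limma adjusted p = 0.161). Its highest HDAC3ΔIEC array was replicate 1, where that of Duox2 and Duoxa2 was replicate 2. Its lowest was replicate 3, as for all 8 members. Il18, an epithelial cytokine, read 8.61, 8.95 and 7.91 against 7.68, 7.44 and 7.00 (-1.12 ± 0.28; limma adjusted p = 0.160), and without HDAC3FF replicate 3 it passed at -1.41 (limma adjusted p = 0.0265, in a range from 0.0265 to 0.421).

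**Figure D4:**
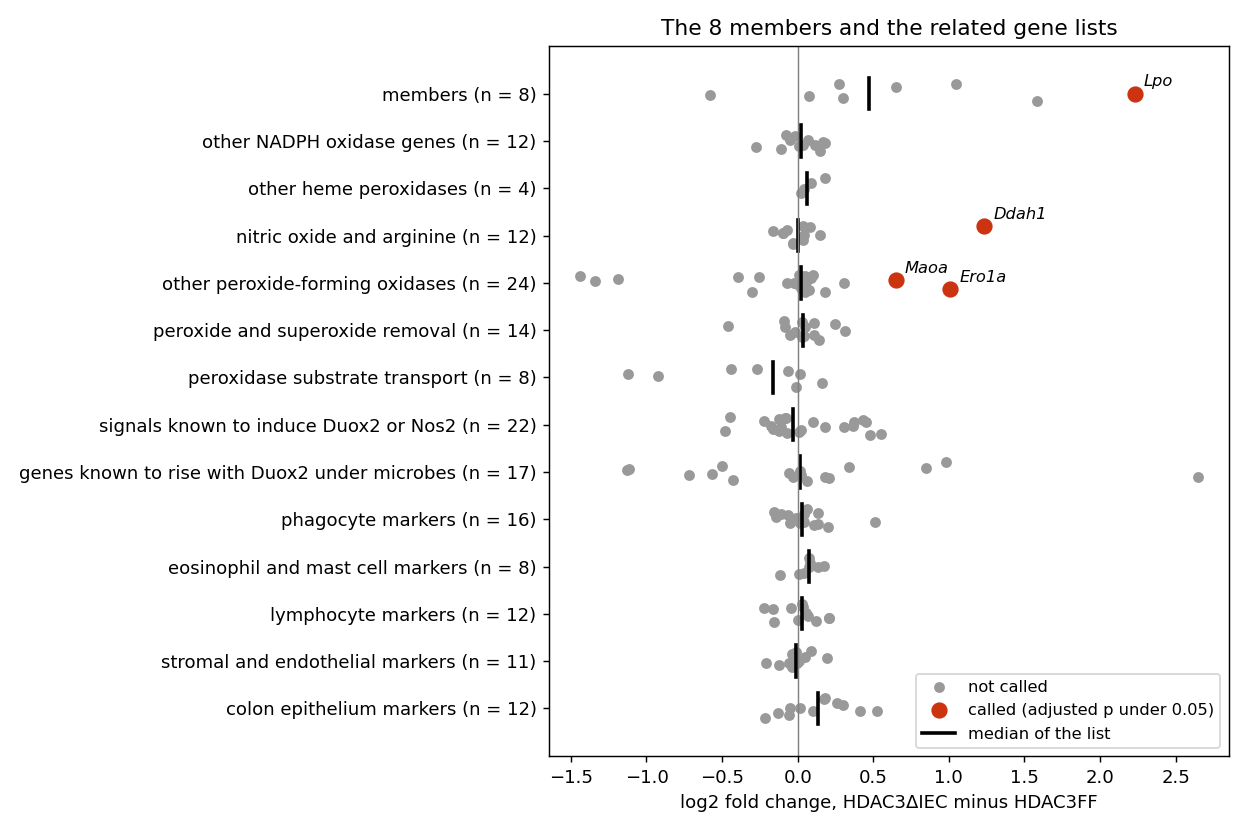
Log2 fold change of HDAC3ΔIEC minus HDAC3FF (horizontal axis) for each measured gene of the 8 members and of 13 related lists, with small vertical scatter within a row; red points passed limma's test over all genes and black bars are medians. Lpo, Ddah1, Ero1a and Maoa are the called genes, and the list medians lie between -0.17 and 0.14 apart from the members' 0.47.

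Phagocytes, eosinophils and other cells also carry oxidases and peroxidases, so their markers are given beside the members. Of 16 measured phagocyte markers limma called 0 (1 had an unadjusted p under 0.05), 14 had a mean under the median of all genes, and their mean signal ran from 4.54 to 4.59 over the HDAC3FF arrays and from 4.57 to 4.64 over the HDAC3ΔIEC arrays. Cd68, a lysosomal protein of macrophages and other cells, had 0.51 ± 0.13 (SE; limma adjusted p = 0.174), and the neutrophil gene S100a9 -0.14 ± 0.08 (limma adjusted p = 0.581) at 3.78 to 3.98 on all arrays. Ly6g, from a family of close copies, stood apart from the rest of the list at 9.39 to 11.64 and is included in the mean signals above. Its lowest value was on HDAC3ΔIEC replicate 3, as for the members. What its probes detect was not tested. All 8 measured eosinophil and mast cell markers lay under the median of all genes (mean signal 3.71 to 3.84 in HDAC3FF and 3.78 to 3.97 in HDAC3ΔIEC), and limma called 0 of them (0 with an unadjusted p under 0.05), with Ms4a2 at 0.17 ± 0.11 and Il5ra at 0.13 ± 0.11. Among 12 lymphocyte and 11 stromal and endothelial markers limma also called 0 (2 and 0 with an unadjusted p under 0.05). These included Cd3e at -0.22 ± 0.09, Gzmb at 0.21 ± 0.08, Acta2 at 0.19 ± 0.12 and Pecam1 at -0.12 ± 0.08. Of 12 measured epithelial markers limma called 0 (4 had an unadjusted p under 0.05). Groups were separate for 5, all higher, where 8.45% of all genes were separate and higher and 7.7% separate and lower. Those 5 were Car1 and the keratins Krt8, Krt18, Krt19 and Krt20, with Krt19 at 0.30 ± 0.09 and Krt18 at 0.53 ± 0.16, and without HDAC3FF replicate 3 Krt18 and Krt20 were called higher.

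The genes most like Lpo over the 6 arrays, among 9447 genes with a mean at or above the median once predicted models, clone names and unnamed loci were left out, were Rundc3b (Pearson r = 0.996), Tmem174 (0.994) and Wbp11 (0.993). Rundc3b and Tmem174 passed limma's test at 0.65 ± 0.10 (SE; adjusted p = 0.0424) and 0.83 ± 0.09 (adjusted p = 0.0197), while Wbp11 did not (0.26 ± 0.08; adjusted p = 0.255). The genes most like Duoxa2 were Arhgap21 (0.995), Heg1 (0.993) and Dot1l (0.985), none of which passed; their log2 fold changes were 0.25, 0.19 and 0.29, a fraction of that of Duoxa2. These correlations include the difference between the genotypes, and with 6 arrays and so many genes high values occur for many genes, so they are given with no p.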

How the data were processed

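One array per mouse was hybridised with biotin-labelled total RNA extracted with Trizol, per the labels' protocols. The authors deposited 1 log2 signal per probe set and array, a scale read from the range of the values. The submitters' processing notes name Affymetrix Power Tools; version, normalization and background correction are not given in these sources, so no other background correction was tried. Of 24939 probe sets, 21105 name 1 gene; per gene the probe set with the highest mean was used. The genotypes were compared with limma 3.58.1 in R 4.3.3 (lmFit, eBayes, two-sided, no covariate), with Benjamini-Hochberg adjustment over 19533 genes and calls at an adjusted p under 0.05. Intervals use the moderated SE and are not adjusted. Exact permutation tests used the 6 arrays. The fit was tested on simulated data. Of 188 entries in 13 lists, 172 were measured, 2 share probe sets with other genes and 14 were without a usable probe set here.

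The members and lists were chosen with earlier results of these data known. Named genes are the members, Hdac3, Epcam, Vil1, up to 4 called genes per list or the 2 with the smallest p, the nearest measured neighbours, and the 3 genes most like the 2 members with the largest change. Duox1, Cybb, Ncf1, Rac1, Epx, Nos1, Nos3, Ly6g, Cftr, Maob, Aoc1, Hao2, Car1, Krt8 and Krt20 were added after their values were seen. Same-numbered arrays were not treated as pairs. Their deviations from the group means correlated at -0.02, -0.07 and -0.20 for replicates 1, 2 and 3, which does not settle whether the mice were paired.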

Additional observations from a re-analysis of the deposited data

How the results depend on the processing

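Results were recomputed under 15 alternatives: with a replicate block, an intensity trend, a robust prior, array weights, quantile normalization, median centring, a filter on dim genes, the mean of all probe sets, adjustment over all probe sets and omission of each array. The number of genes called, 137, was 12 with the replicate block (10 higher, 2 lower), 357 with array weights, 90 with adjustment over all probe sets and 13 to 430 with arrays left out. Whether the replicate numbers pair the mice is unknown here. The replicate block called 1 member, as in the unblocked fit, and no gene of the nitric oxide list (0) or of the other oxidases (0). In that fit Ddah1, Ero1a and Maoa had limma adjusted p = 0.0986, 0.0798 and 0.136. With arrays left out, 0 to 1 members were called; Lpo ran from 2.01 to 2.39, Nox1 from -0.082 to 0.63 and Cyba from -0.12 to 0.30, both turning without HDAC3FF replicate 3. The other members kept their direction in each alternative run; Nos2 could not be fitted under the filter on dim genes. The other oxidases had 1 call with quantile normalization, with median centring and with adjustment over all probe sets, and 0 to 4 with arrays left out; the nitric oxide list had 0 to 1. The transporters had 1 call with an intensity trend, array weights, quantile normalization or the filter on dim genes, and 0 to 2 with arrays left out. The inducing signals, the genes rising under microbes and the epithelial markers had 0 to 2 with arrays left out. The causes were not tested. Signals near 4 are not marked as above or below background, which limits what small differences there show.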
